A study of Rattus norvegicus with 20 samples.

Results

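The proteasome genes described here are the 41 genes whose platform symbol begins with Psma, Psmb, Psmc, Psmd or Psme, out of 14217 genes that the array could name by 1 symbol. Each gene is shown by the probe set with the highest mean level. Members were taken by symbol and not by their measured change, though earlier results of these data were known. Of the 41, 39 encode parts, assembly chaperones or activators of the proteasome, namely 7 alpha-ring and 6 beta-ring core subunits, 3 immunoproteasome subunits, 6 ATPases and 11 other subunits of the regulatory cap, 3 cap assembly chaperones and 3 activators. The other two, Psmc3ip and Psme3ip1, share only the prefix, being named for proteins that bind a subunit. Psma8, Psmb6, Psmb11 and Psme3 had no probe set with their symbol alone and are not analysed here.

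The study gave triphenyl phosphate, an organophosphate that serves as flame retardant and plasticiser, to male Harlan Sprague-Dawley rats by oral gavage in corn oil, in 4 daily doses, and measured liver RNA on day 5 with Affymetrix arrays. The vehicle group (corn oil alone) had 5 arrays, and the groups given 55, 110, 220, 440 and 881 mg/kg had 3 arrays each, 20 in all. Every animal, controls included, was a male of that strain gavaged with corn oil. The design text gives the second highest dose as 441 mg/kg, where the sample labels give 440 mg/kg, and the labels do not tie arrays to separate animals. The p-values therefore rest on the spread among these arrays, part of which may be technical.

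The proteasome degrades proteins tagged with ubiquitin. Its core is a barrel of alpha rings outside and beta rings inside, and the beta subunits Psmb5, Psmb6 and Psmb7 carry the proteolytic sites. The regulatory cap binds ubiquitin chains, removes them and unfolds the substrate with a ring of ATPases, while the activators Psme1 and Psme2 or Psme4 can bind the core in place of the cap. Interferon induces Psmb8, Psmb9 and Psmb10, which replace Psmb5, Psmb6 and Psmb7 in newly assembled cores and favour peptides for class I antigen presentation. Proteasome genes as a group are known targets of the transcription factor Nfe2l1, which acts through antioxidant response elements, and the inducible subunits are targets of interferon-activated factors.

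The sequences upstream of 4 of the members described most closely below are shown, each of which holds a motif. Those of Psma1, Psmd2 and Psme1, which rose too, held none of the motifs searched in their last 100 bases and are not shown. Psmd5 changed most, Psmd7 rose and holds an interferon-type motif, and Psmb10 and Psmb5 stand for the inducible and the constitutive catalytic subunits. Each is the 100 bases before the annotated gene start, read 5′ to 3′ on the gene's strand, from RefSeq on the rat build GRCr8. Psmd5 lies at chr3:38548491-38548590 (minus strand), Psmd7 at chr19:52411317-52411416 (minus), Psmb10 at chr19:50743293-50743392 (minus) and Psmb5 at chr15:32047380-32047479 (minus). Capitals mark TCTCGCGAGA in Psmd5, GAAA, any 2 bases and GAAA in Psmb10 and the reverse complement of this pattern in Psmd7, and TGACNNNGC in Psmb5.
Psmd5: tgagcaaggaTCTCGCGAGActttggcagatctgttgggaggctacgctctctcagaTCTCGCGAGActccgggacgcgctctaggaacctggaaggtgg
Psmd7: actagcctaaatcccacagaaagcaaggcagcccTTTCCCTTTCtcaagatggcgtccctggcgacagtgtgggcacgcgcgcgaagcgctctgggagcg
Psmb10: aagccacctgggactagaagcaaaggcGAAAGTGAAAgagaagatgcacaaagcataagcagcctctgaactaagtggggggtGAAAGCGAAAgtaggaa
Psmb5: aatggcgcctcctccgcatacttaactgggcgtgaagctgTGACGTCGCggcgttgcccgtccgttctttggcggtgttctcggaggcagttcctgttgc

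The 250 bases upstream were searched on both strands for 37 of the 41 members. Psma7, Psmd6, Psmd12 and Psmd14 had no entry. TGACNNNGC, the core of the antioxidant response element, was present in 6 of the 37 (16.2%) and in 10.1% of all 33469 promoters. The members with it were Psma3, Psmb2, Psmb5, Psmd1, Psmd9 and Psme4. Whether a match goes with a change in level was not tested. The pattern GAAA, any 2 bases, GAAA, the core of the interferon-stimulated response element, was present in 5 of 37 (13.5%: Psma4, Psmb3, Psmb10, Psmd7 and Psme2) and in 3.41% of all promoters. Psmb10 held it at 73 and 17 bases before the start. The CCAAT box was present in 19 of 37 (51.4%) and in 34% of all promoters. In Psmb2 its last base is the first base of the TGACNNNGC match.

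The longest repeat within the Psmd5 window is 14 bases and holds the palindrome TCTCGCGAGA, known as the binding element of the factor BANP. It was looked for after the Psmd5 sequence had been seen. It reads the same on both strands and overlaps no other motif searched. Psmd5 holds it at 90 and 43 bases before the start. It was present in 0.341% of all promoters, and 2 or more copies in 0.0239% (8 promoters). Among the members Psmb2 held it too. These matches describe letters in a window and are not shown to be bound sites.

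Levels are log2 values from robust multi-array averaging (RMA), so a difference of 1 is a doubling. They compare arrays for a given probe set, not probe sets with each other. A gene is said to have risen or fallen where its limma p-value, adjusted by the Benjamini-Hochberg method over all 14217 genes, was under 0.05, with SE the standard error of the difference. The 881 mg/kg array numbered 2 stood apart from the rest. Its Gapdh control probe sets differed by 5.24 between the 3-prime and 5-prime ends, against 0.814 to 1.64 on the other arrays. Its median correlation with the other arrays was 0.980, against 0.990 to 0.994. Albumin, the hepatocyte's main secreted protein, had a mean level of 15.34 in vehicle and 15.35 at 881 mg/kg. At 881 mg/kg, 10 of 11 measured macrophage markers fell (median change -0.76) and 3 of 13 lymphocyte markers fell (median -0.23). Without array 2 the counts were 4 and 1 and the medians -0.70 and -0.22. Of endothelial markers 3 of 12 fell and of stellate cell markers 9 of 14 (1 and 4 without array 2), and of 12 hepatocyte markers 1 rose and 2 fell (1 and 0). Of all 14217 genes 12.7% rose and 6.73% fell at 881 mg/kg, and 1084 rose and 559 fell without array 2. The summed macrophage level was 13.81 to 14.14 in vehicle and 12.94 to 13.62 at 881 mg/kg. The part of these shifts in the results below was not tested. In bulk liver, fewer cells of a type and less RNA per cell cannot be told apart.

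Across the doses most proteasome genes stayed close to the vehicle level. At 55, 110 and 220 mg/kg 0 of 41 members were called. Of all genes, 1.93%, 2.36% and 2.25% rose and 0.879%, 1.24% and 1.18% fell in the same limma comparisons. At an unadjusted p under 0.05 the counts were 0, 1 and 2 (15.9%, 16.7% and 16.6% of all genes), and the lowest adjusted p was 0.376, 0.106 and 0.108. At 440 mg/kg 1 member rose, Psmd5, and 0 fell, against 6.76% and 4.28% of all genes, and 3 members had an unadjusted p under 0.05 (25.6% of all genes). At 881 mg/kg 5 of 41 rose (Psma1, Psmd2, Psmd5, Psmd7 and Psme1) and 0 fell, where 12.7% of all genes rose and 6.73% fell. The share that rose, 12.2%, was close to the background, and 12 members had an unadjusted p under 0.05, where 33.4% of all genes did. With centred arrays 3 members rose, and the counts over all genes went from 1810 rising and 957 falling to 1490 and 1345. Without the 881 mg/kg array 2 the called members were Psma1 and Psmd5, 4.88% of the members against 7.62% of all genes.

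**Figure D1:**
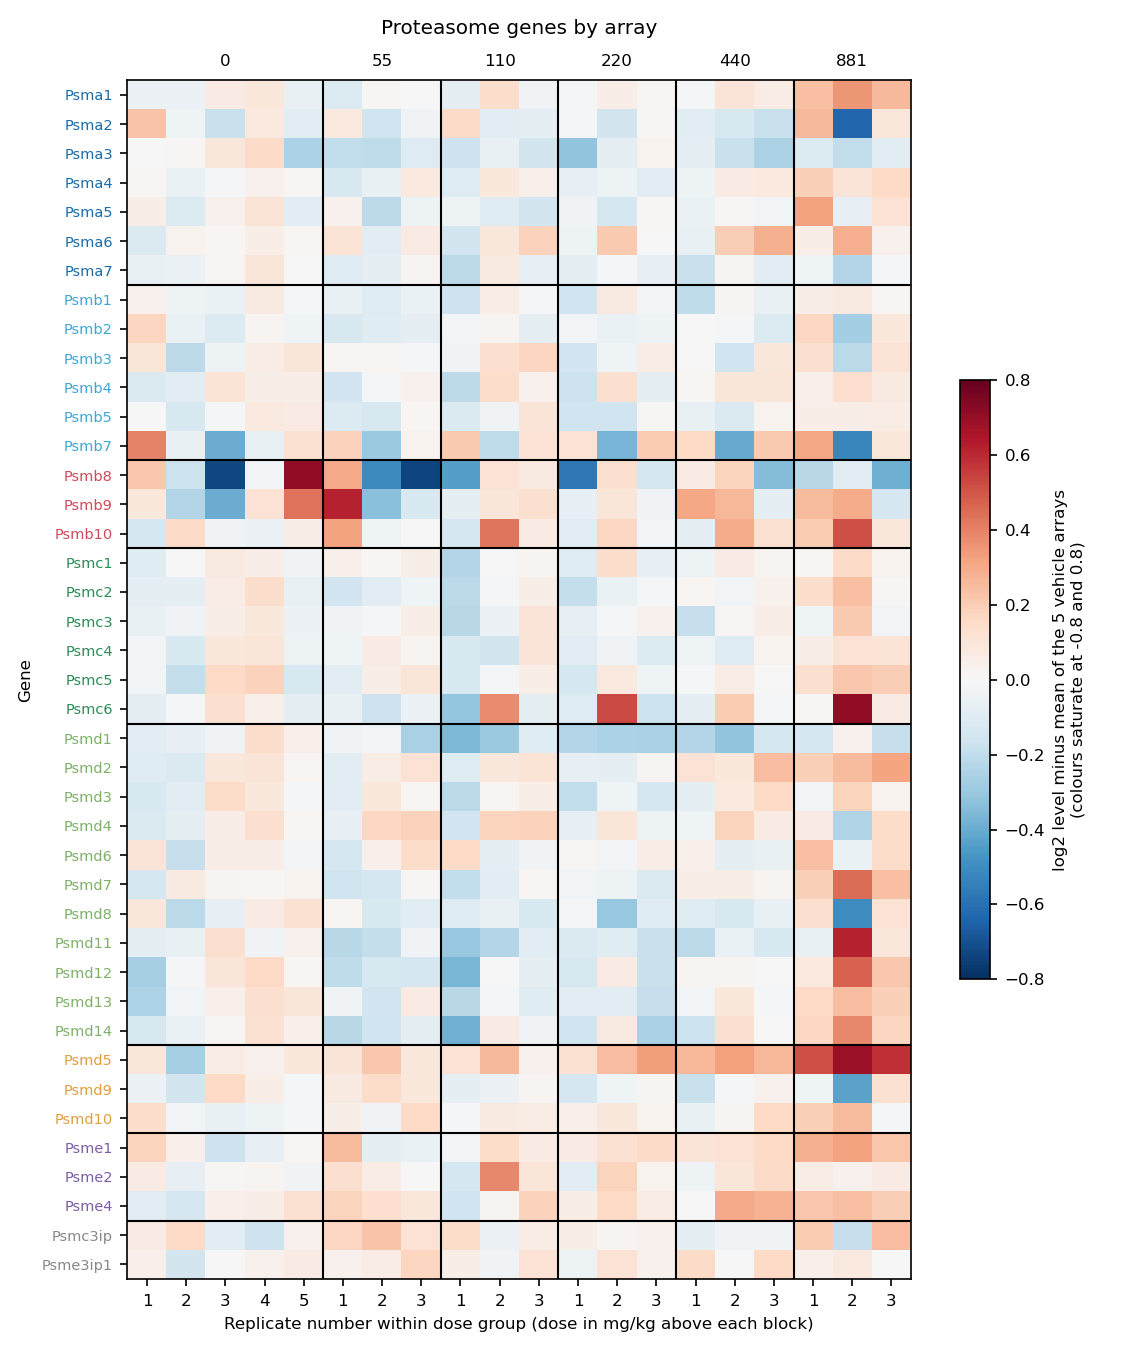
Log2 level of each of the 41 genes (rows, coloured by role) on each of the 20 arrays (columns, by dose and replicate number), as the difference from the mean of the 5 vehicle arrays. Psmd5 darkens towards 881 mg/kg, the Psmb8 row varies most within groups, and the 881 mg/kg array 2 has strong red and strong blue cells among the cap and core genes.

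The members' changes were small in size. At 881 mg/kg the 95% interval lay within 0.5 of no change in 36 of 41 members, the exceptions being Psmb8, Psmb9, Psmb10, Psmc6 and Psmd5. The median size of change without regard to sign was 0.12 in the members and 0.15 over all genes. The median SE was 0.086 for the members and 0.10 for all genes. The median signed change was 0.093 for the members and 0.00070 for all genes. Centring each array on its own median lowered the change of the median gene at 881 mg/kg by 0.047, which left 0.045 for the members. The 881 mg/kg mean of 31 members (75.6%) lay above the vehicle mean and that of 10 below, where 50.2% of all genes lay above. Without array 2 of that group 87.8% of the members and 48.8% of all genes lay above. With centred arrays the shares were 68.3% and 41.6%.

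**Figure D2:**
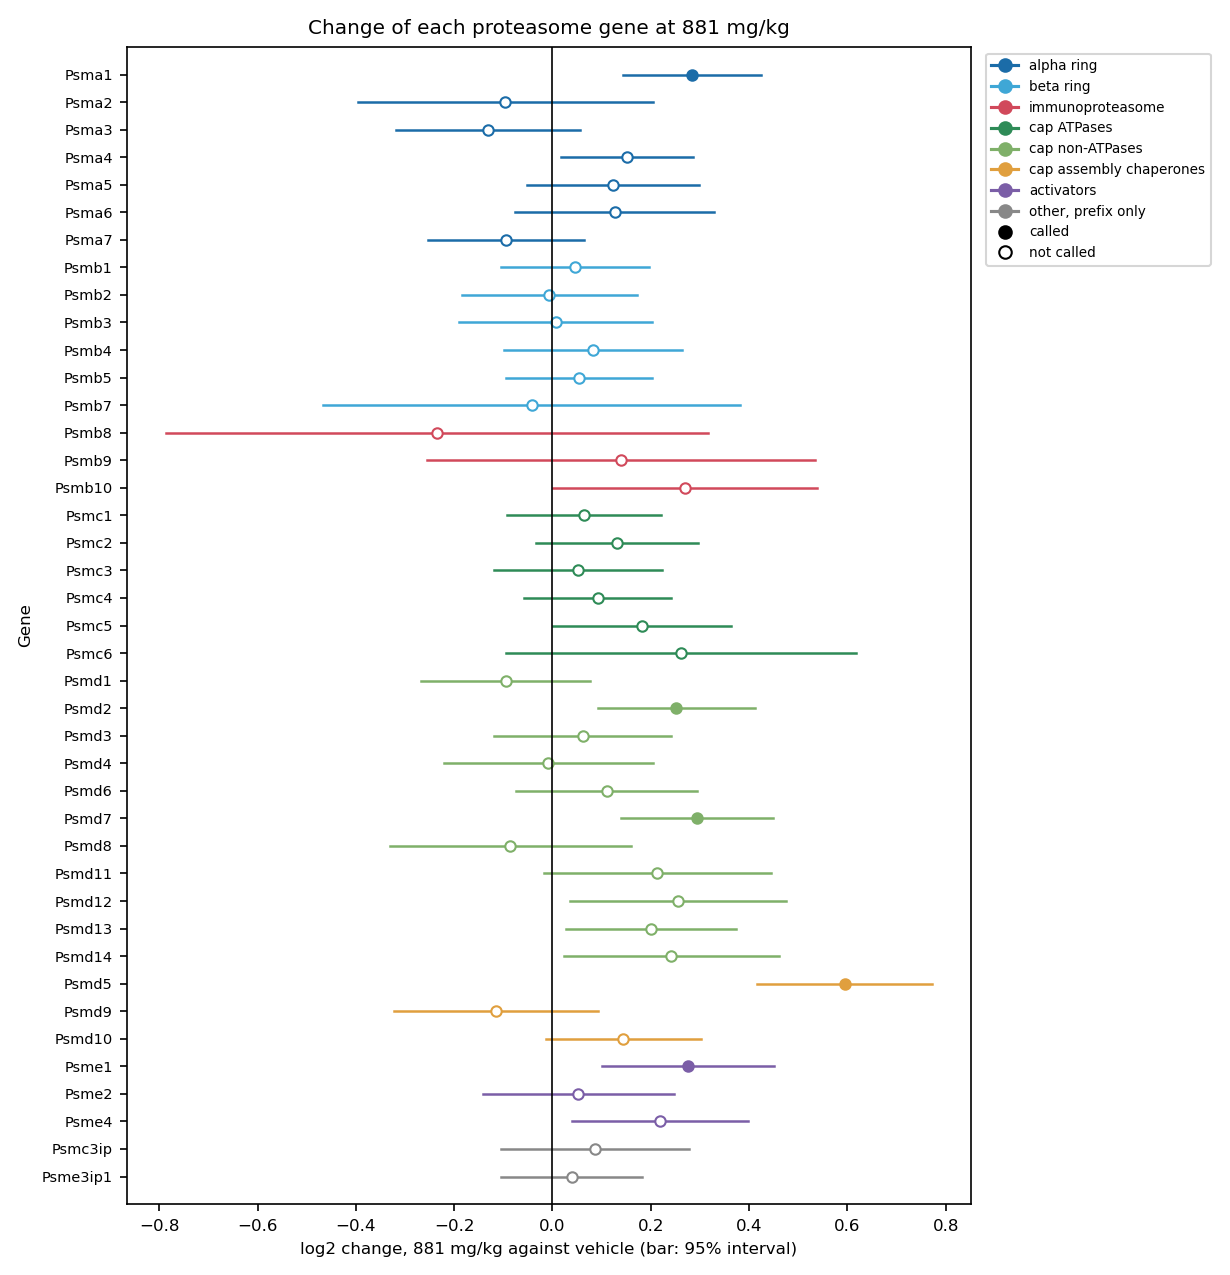
Log2 change of each member at 881 mg/kg against vehicle (point) with its 95% interval (bar), coloured by role; filled points were called. The 5 filled points all lie to the right of 0, Psmd5 farthest at 0.60, and the widest bar belongs to Psmb8.

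Psmd5, a chaperone that helps assemble the ATPase base of the cap and is released from the finished particle, changed most. Its log2 level on the vehicle arrays was 9.75, 9.40, 9.72, 9.70 and 9.75. It was 9.77, 9.88 and 9.75 at 55 mg/kg, 9.78, 9.92 and 9.70 at 110 mg/kg, and 9.78, 9.91 and 10.00 at 220 mg/kg. At 440 mg/kg it was 9.93, 9.99 and 9.93, and at 881 mg/kg 10.18, 10.35 and 10.25. Every array at 220, 440 and 881 mg/kg lay above every vehicle array, and every 881 mg/kg array lay above every array of the other groups. In all genes, every dosed array lay above every vehicle array in 7.95% at 220 mg/kg, 12.8% at 440 mg/kg and 13.4% at 881 mg/kg.

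The Psmd5 change against vehicle was 0.13, 0.14, 0.23, 0.29 and 0.60 from the lowest to the highest dose (SE 0.085 each, limma). These comparisons share the vehicle arrays. The adjusted p was 0.0362 at 440 mg/kg and 0.000107 at 881 mg/kg, where the level was 1.51-fold the vehicle's. The 440 mg/kg call was lost when any 1 of the 440 mg/kg arrays, vehicle array 2 or vehicle array 4 was left out. With the lowest vehicle array, number 2, left out the changes were 0.22 at 440 mg/kg (adjusted p 0.0711) and 0.53 at 881 mg/kg (adjusted p 0.000146). Without the 881 mg/kg array 2 the change at 881 mg/kg was 0.55 (adjusted p 0.00109). Between 881 and 440 mg/kg the difference of 0.31 ± 0.095 (SE) did not pass (adjusted p 0.202).

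The other cap assembly chaperones did not pass the test. Psmd9, which binds the ATPase Psmc6 and Psmc3 during assembly, changed by -0.11 ± 0.099 (SE, adjusted p 0.447). Its value turned to 0.044 without the 881 mg/kg array 2. Psmd10, gankyrin, which binds Psmc4, changed by 0.14 ± 0.075 (adjusted p 0.190), and by 0.090 without that array.

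Among the 7 alpha-ring subunits, which form the gate of the core, 1 rose. Psma1 was 10.93, 10.94, 11.05, 11.07 and 10.92 on the vehicle arrays and 11.22, 11.33 and 11.24 at 881 mg/kg. Those arrays lay above all arrays of every other group, of which the highest was 11.12, at 110 mg/kg. The change was 0.28 ± 0.067 (SE), or 1.22-fold (limma adjusted p 0.00616), and 0.25 without array 2 (adjusted p 0.0368). At 440 mg/kg it was 0.047, so the group means were within 0.05 of the vehicle's up to that dose. Psma4 had non-overlapping arrays too, 11.06 to 11.14 in vehicle and 11.21 to 11.30 at 881 mg/kg, but its change of 0.15 ± 0.064 did not pass (adjusted p 0.106).

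The remaining alpha-ring genes lay on both sides of the vehicle level. Psma5 and Psma6 changed by 0.12 ± 0.084 and 0.13 ± 0.097 (adjusted p 0.321 and 0.383). Without array 2 they changed by 0.22 and 0.045. Psma2, Psma3 and Psma7 changed by -0.096, -0.13 and -0.095 (adjusted p 0.682, 0.322 and 0.409). Psma2 was 10.91, 10.02 and 10.75 at 881 mg/kg against 10.48 to 10.89 in vehicle, and without array 2 its change was 0.17 and that of Psma7 -0.024. The median change of the 7 was 0.12, and 0.17 without that array.

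None of the 6 constitutive beta-ring genes passed at 881 mg/kg, where the smallest adjusted p was 0.542 (Psmb4, 0.082 ± 0.087). Psmb5, the chymotrypsin-like site, was 11.90, 11.78, 11.89, 11.98 and 11.97 in vehicle and 11.95, 11.95 and 11.96 at 881 mg/kg. These arrays lay inside the vehicle range. The change was 0.053 with a 95% interval from -0.095 to 0.20. The structural subunits Psmb1, Psmb2 and Psmb3 changed by 0.046, -0.0065 and 0.0062 (adjusted p 0.699, 0.967 and 0.971). The median of the 6 was 0.026, and it was 0.086 without array 2 and -0.021 with centred arrays.

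Psmb7, the trypsin-like site, varied more within groups than other beta-ring genes. It was 10.36, 9.91, 9.57, 9.91 and 10.09 in vehicle and 10.28, 9.44 and 10.06 at 881 mg/kg. Its replicate 1 lay above its replicate 2 in all 6 groups, which held for 5.55% of all genes. Psma2 showed that order as well, and 6 members (Psma1, Psmb4, Psmc3, Psmd3, Psmd11 and Psmd14) showed the reverse, which held for 6.54% of all genes. The difference between the beta-actin control probe sets was larger on replicate 2 than on replicate 1 in all 6 groups as well, and its part in these orders was not tested. The Psmb7 change of -0.042 ± 0.20 (adjusted p 0.909) became 0.20 without the 881 mg/kg array 2.

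The inducible subunits did not pass at any dose. Psmb8 was 10.48, 10.09, 9.54, 10.24 and 10.97 on the vehicle arrays, a 2.71-fold range among controls. It was 10.33, 10.45 and 9.91 at 440 mg/kg and 10.04, 10.17 and 9.87 at 881 mg/kg, all inside the vehicle range. The change at 881 mg/kg was -0.24 ± 0.26 (SE, adjusted p 0.571), with a 95% interval from -0.79 to 0.32. Its SD within groups, 0.41, was at the 98.1 percentile of all genes.

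Psmb9 was 9.41, 9.09, 8.94, 9.45 and 9.77 in vehicle and 9.58, 9.63 and 9.20 at 881 mg/kg. Vehicle array 5 was the highest and vehicle array 3 the lowest for Psmb8 and for Psmb9. For Psmb10 vehicle array 2 was the highest and vehicle array 1 the lowest. The Psmb9 change was 0.14 ± 0.19 (adjusted p 0.650) and 0.059 without array 2 of the 881 mg/kg group. Psmb10 was 8.92, 9.21, 9.03, 9.01 and 9.10 in vehicle and 9.26, 9.57 and 9.15 at 881 mg/kg, so the groups overlapped by the lowest dosed array. Its change was 0.27 ± 0.13 (unadjusted p 0.0491, adjusted p 0.148) and 0.15 without array 2. The SD within groups was 0.29 for Psmb9 and 0.19 for Psmb10, against a median of 0.11 for the core genes and 0.11 for the cap genes.

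**Figure D3:**
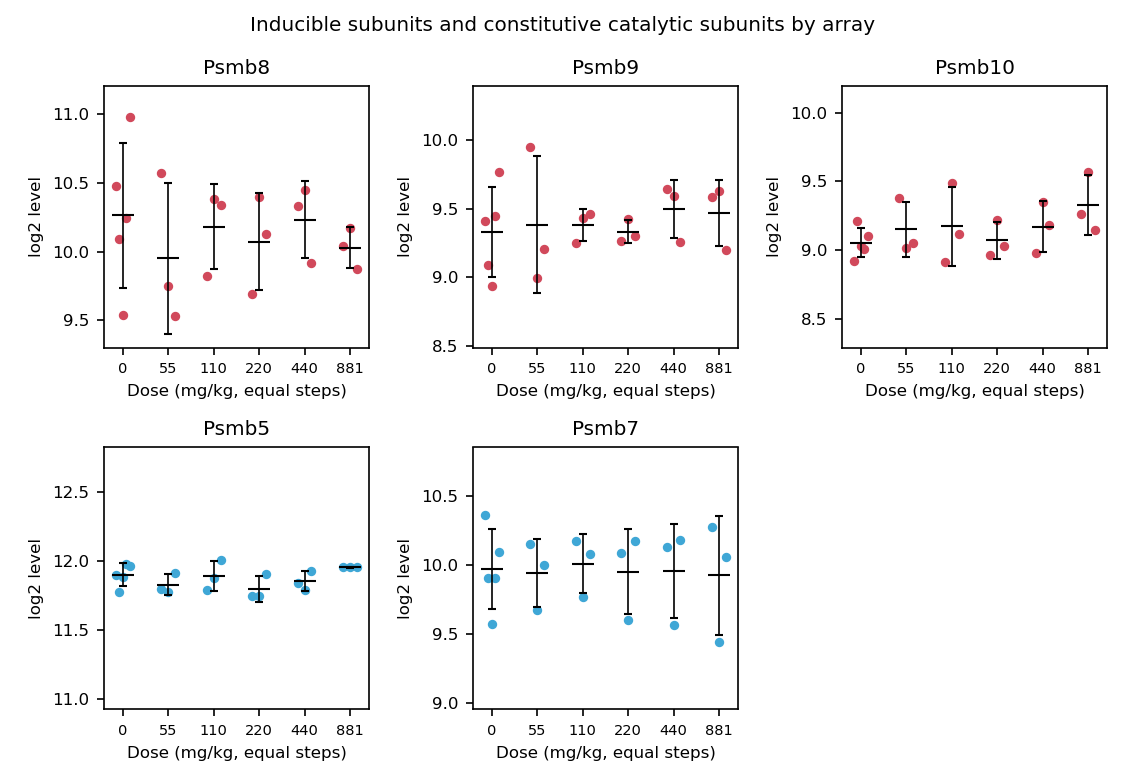
Log2 level on each array (points) by dose in mg/kg, with group mean and SD (black bars), for the inducible subunits Psmb8, Psmb9 and Psmb10 and the constitutive subunits Psmb5 and Psmb7; all panels span the same number of log2 units. In vehicle the Psmb8 points spread over 9.54 to 10.97, whereas the vehicle points of Psmb5 lie between 11.78 and 11.98.

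Whether inducible subunits shifted against the subunits they replace was asked with the within-array difference. Psmb8 minus Psmb5 was -1.64 ± 0.50 (SD, n = 5) in vehicle and -1.93 ± 0.15 (SD, n = 3) at 881 mg/kg. The shift of -0.29 did not pass an exact two-sided permutation test (p = 0.393, adjusted 0.952 over 4 tests). Psmb10 minus Psmb7 was -0.91 ± 0.34 in vehicle and -0.60 ± 0.63 at 881 mg/kg, a shift of 0.31 (exact permutation p = 0.5, adjusted 0.952). It was -0.051 without the 881 mg/kg array 2. At 440 mg/kg the shifts were 0.017 (exact permutation p = 1) and 0.13 (exact permutation p = 0.714). With 3 arrays against 5 the smallest p possible is 0.0357. After adjustment over 4 tests a single shift alone could therefore not have passed 0.05, whatever its size. Most of the 4 would have had to reach that smallest p together. These tests thus decide little, and no conclusion is drawn from them. Only the shifts between groups can be read here, since levels of different probe sets cannot be compared.

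All 6 cap ATPases, the unfolding motor, lay above the vehicle mean at 881 mg/kg, none past the test (median change 0.11, over all genes 0.00070), where 50.2% of all genes lay above. Without array 2 of that group 5 of the 6 lay above and the median was 0.056. Psmc5 changed by 0.18 ± 0.087 (adjusted p 0.148) and Psmc2 by 0.13 ± 0.079 (adjusted p 0.258), which became 0.16 and 0.075 without array 2. Psmc6 was 10.33, 11.03 and 10.39 at 881 mg/kg against 10.24 to 10.45 in vehicle, a change of 0.26 ± 0.17 (adjusted p 0.299). Array 2 alone lay above the vehicle arrays, and without it the change was 0.036. A second Psmc6 probe set rose by 0.29 ± 0.099 (limma over all probe sets, adjusted p 0.0495), and another changed by 0.12. The changes of these other probe sets without array 2 were not computed. Psmc1, Psmc3 and Psmc4 changed by 0.064, 0.052 and 0.093 (0.019, -0.027 and 0.080 without array 2), and the largest adjusted p of the 6 was that of Psmc3, 0.697.

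The 11 other cap subunits, which form the lid and the ubiquitin-binding part of the base, had a median change of 0.20 at 881 mg/kg, with 2 called, and of 0.15 with 0 called when array 2 was left out. Psmd7, the lid subunit that pairs with the deubiquitinase Psmd14, was 10.49, 10.70, 10.65, 10.64 and 10.65 in vehicle and 10.82, 11.07 and 10.87 at 881 mg/kg, without overlap. It rose by 0.29 ± 0.074 (SE), or 1.23-fold (limma adjusted p 0.00939). Without the 881 mg/kg array 2 the change was 0.22 and the call was lost (adjusted p 0.0745), as it was with only the groups compared in the fit (adjusted p 0.0529). A second Psmd7 probe set changed by 0.045 ± 0.089 (adjusted p 0.776).

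Psmd2, a scaffold of the base that docks ubiquitin shuttles and Usp14, was 10.72, 10.70, 10.91, 10.92 and 10.84 in vehicle. At 881 mg/kg it was 11.01, 11.07 and 11.13, above every vehicle array, with 440 mg/kg arrays at 10.94, 10.90 and 11.07. It rose by 0.25 ± 0.076 (SE), or 1.19-fold (limma adjusted p 0.0252). The call was lost without the 881 mg/kg array 2 (0.25, adjusted p 0.0685), array 3 (0.22, adjusted p 0.0850), vehicle array 1 (0.23, adjusted p 0.0576) or vehicle array 2 (0.22, adjusted p 0.0581), and with centred arrays (0.20, adjusted p 0.0878). It was lost as well with the beta-actin covariate (0.22, adjusted p 0.0615) and with only the groups compared in the fit (adjusted p 0.0742).

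Of the remaining lid subunits, Psmd12, Psmd13 and Psmd14 changed by 0.25 ± 0.10, 0.20 ± 0.083 and 0.24 ± 0.10 (adjusted p 0.0949, 0.0949 and 0.110), and by 0.15, 0.18 and 0.17 without array 2. Psmd14 was 10.40, 10.62 and 10.40 at 881 mg/kg and 10.10 to 10.35 in vehicle. The other Psmd14 probe sets changed by -0.17 and -0.0003. Psmd11 changed by 0.21 ± 0.11 (adjusted p 0.185), with array 2 at 11.89 against 11.22 and 11.37 on the others, and by 0.014 without it. A second Psmd11 probe set changed by -0.067. Psmd3 and Psmd6 changed by 0.061 and 0.11 (adjusted p 0.661 and 0.403; 0.0015 and 0.19 without array 2), and Psmd8 by -0.086 (adjusted p 0.650), which became 0.12 without array 2. Psmd4, a ubiquitin receptor of the cap, changed by -0.0086 ± 0.10 (adjusted p 0.963), the largest adjusted p of the 11.

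Psmd1, the other large base scaffold, was lower at the middle doses than in vehicle. Its level was 9.70, 9.72, 9.76, 9.93 and 9.82 in vehicle and 9.76, 9.76 and 9.52 at 55 mg/kg. It was 9.43, 9.49 and 9.69 at 110 mg/kg, 9.55, 9.53 and 9.53 at 220 mg/kg, and 9.55, 9.47 and 9.64 at 440 mg/kg. All arrays of these 3 groups lay below all vehicle arrays, which held for 5.28%, 5.02% and 8.4% of all genes, and Psmd11 was the only other member below at any of them (110 and 220 mg/kg). The changes of -0.25, -0.25 and -0.23 (SE 0.082 each) did not pass (adjusted p 0.106, 0.108 and 0.0791). At 881 mg/kg it was 9.65, 9.82 and 9.60, a change of -0.095 (adjusted p 0.442), and of -0.16 without array 2.

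Of the activators, Psme1, which with Psme2 forms the interferon-inducible ring that opens the core, was 12.27, 12.14, 11.93, 12.03 and 12.11 in vehicle and 12.38, 12.41 and 12.32 at 881 mg/kg. The groups did not overlap. It rose by 0.28 ± 0.083 (SE), or 1.21-fold (limma adjusted p 0.0257). The call was lost without vehicle array 3 (adjusted p 0.0591), vehicle array 4 (0.0558), the 881 mg/kg array 1 (0.0617) or array 2 (0.0948), with centred arrays (0.0718), with only the groups compared in the fit (0.0707) and with the replicate block (0.0827). With the mean of its probe sets, of which the second was dim at 6.29, the change was 0.13 (adjusted p 0.25). Its partner Psme2 was 10.73, 10.70 and 10.73 at 881 mg/kg, inside the vehicle range of 10.60 to 10.74, and changed by 0.053 ± 0.093 (adjusted p 0.733).

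Psme4, the large single-chain activator, was 10.48, 10.43, 10.60, 10.62 and 10.68 in vehicle and 10.78, 10.80 and 10.76 at 881 mg/kg. Among the activators its arrays did not overlap either, but the change of 0.22 ± 0.086 did not pass (adjusted p 0.0815). Its other probe sets changed by -0.23 and 0.054. The prefix-only genes Psmc3ip and Psme3ip1 changed by 0.088 and 0.039 (adjusted p 0.538 and 0.736). In all, 9 members had every 881 mg/kg array above every vehicle array, the 5 that rose and Psma4, Psmd13, Psmd14 and Psme4. Over all genes 13.4% were so, and 0 members lay wholly below, where 8.31% of all genes did. The 55 mg/kg arrays of 0 members lay wholly above or wholly below the vehicle arrays, where those of 9.33% and 4.26% of all genes did, and those of 0 members at 110 mg/kg lay wholly above, where 7.62% did.

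**Figure D4:**
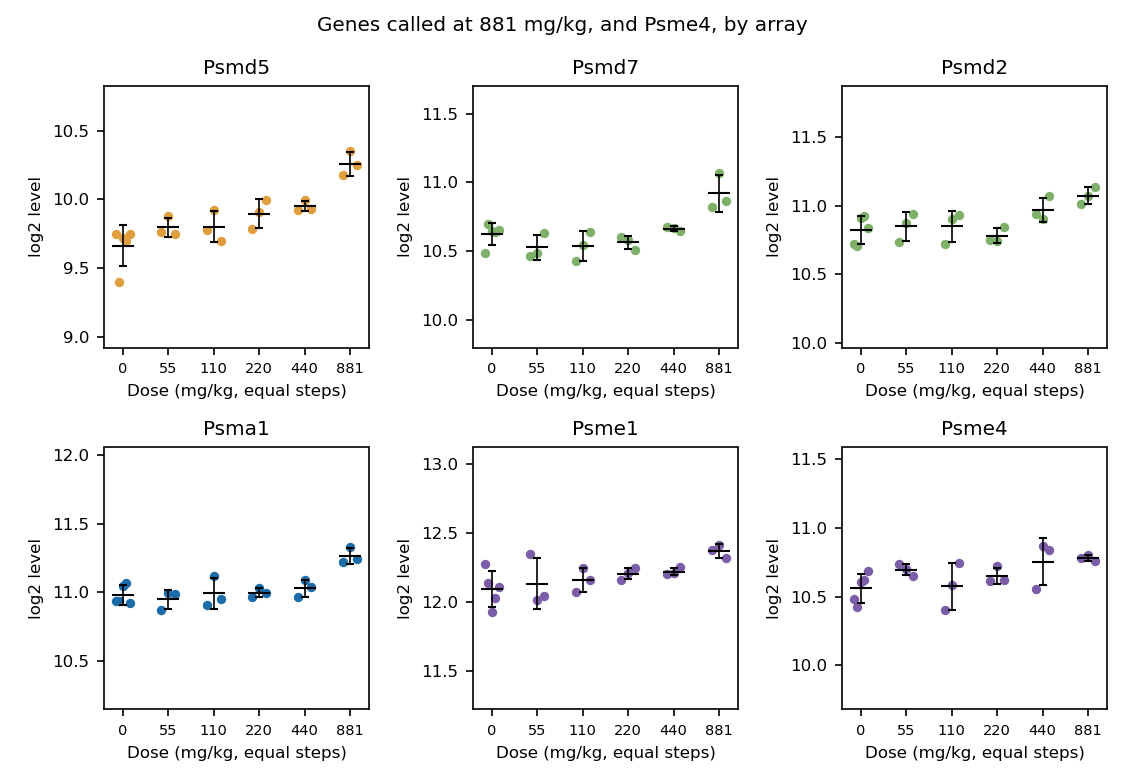
Log2 level on each array (points) by dose in mg/kg, with group mean and SD (black bars), for the 5 genes that rose at 881 mg/kg and for Psme4; all panels span the same number of log2 units. Psmd5 climbs from 9.66 in vehicle to 9.95 at 440 mg/kg and 10.26 at 881 mg/kg, while Psma1 and Psmd7 separate from the other groups at 881 mg/kg.

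Over the dose steps, 5 members rose with a linear term (Psma1, Psmd2, Psmd5, Psmd7 and Psme1) and 0 fell, against 12.9% and 8.81% of all genes. Psmd5 rose by 0.099 ± 0.015 (SE) per step (limma adjusted p 0.000107). Psme1 rose by 0.047 ± 0.014 per step (adjusted p 0.0159). These were the only members whose group means rose at every step, which 1.83% of all genes did, and the means of 0 members fell at every step, where those of 1.41% of all genes did. When any 1 of the 881 mg/kg arrays was left out, Psmd5 and Psme1 were the members called. Without array 2 of that group 9.8% of all genes rose. Between 881 and 440 mg/kg, which uses no vehicle array, 0 of 41 members were called by limma (5 at an unadjusted p under 0.05, where 10.6% of all genes were, lowest adjusted p 0.202), where 0.134% of all genes rose and 0.127% fell.

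By role, the median change at 881 mg/kg was 0.046 for the 13 core genes, 0.13 for the 17 cap genes, 0.14 for the 3 inducible subunits, 0.14 for the 3 cap chaperones and 0.22 for the 3 activators, where that of all genes was 0.00070. Without the 881 mg/kg array 2 these medians were 0.12, 0.11, 0.059, 0.090 and 0.21, so the order of core and cap turned. With centred arrays the core and cap medians were -0.0017 and 0.084, where that of all genes was -0.047. At 220 mg/kg the core and cap medians were -0.042 and -0.073. No test of the difference between these groups of genes was made.

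**Figure D5:**
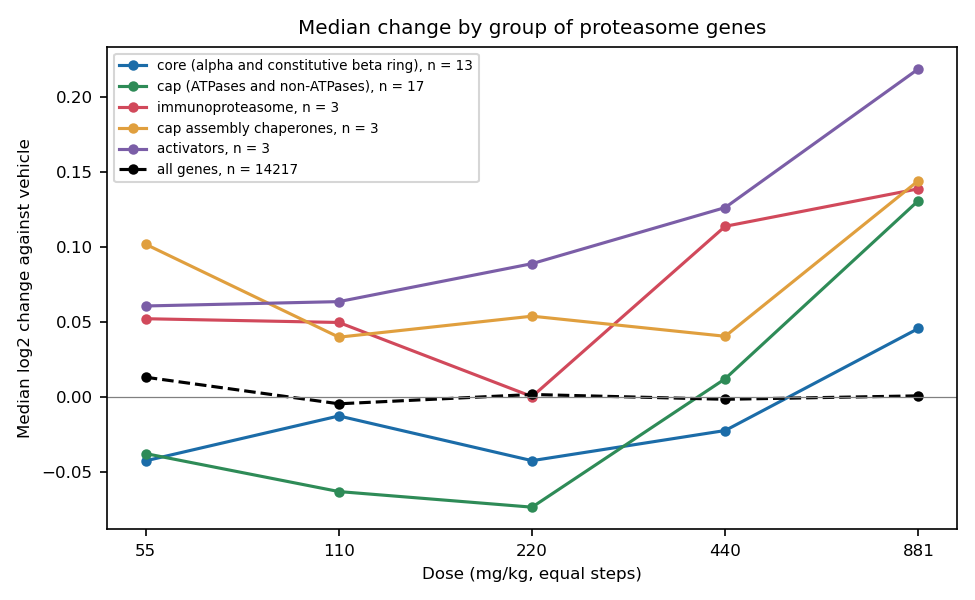
Median log2 change against vehicle (vertical axis) at each dose in mg/kg (horizontal axis, equal steps) for the core, cap, inducible, chaperone and activator genes and for all 14217 genes (dashed). Core and cap medians lie below 0 at 55 to 220 mg/kg and reach 0.046 and 0.13 at 881 mg/kg; without array 2 of that group they are 0.12 and 0.11.

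Other genes of the pathway were read from 4 lists at 881 mg/kg, where 12.7% of all genes rose and 6.73% fell. Without array 2 of that group 7.62% of all genes rose, and 559 of 14217 fell. In the list of assembly factors, ubiquitin receptors and deubiquitinases, 21 of 23 genes were measured, 7 rose and 0 fell, with a median change of 0.14. With array 2 of the 881 mg/kg group left out, 3 rose. Ubqln2, a shuttle that carries ubiquitinated proteins to the cap, was 10.07, 9.94, 10.06, 9.95 and 10.07 in vehicle and 10.51, 10.83 and 10.63 at 881 mg/kg. The groups did not overlap, and it rose by 0.64 ± 0.099 (limma adjusted p 0.000228).

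Usp14, the deubiquitinase that docks on Psmd2, was 10.03, 10.09, 10.34, 10.25 and 10.18 in vehicle and 10.62, 10.84 and 10.46 at 881 mg/kg. It rose by 0.46 ± 0.089 (adjusted p 0.00136) and by 0.36 without array 2 (adjusted p 0.0133). Uchl5, the other cap-bound cysteine deubiquitinase, rose by 0.45 ± 0.11 (adjusted p 0.00872), a call lost without array 2 (0.34, adjusted p 0.0742). Psmf1, an inhibitor of the core, rose by 0.35 ± 0.089 (adjusted p 0.00932), and that call was lost without array 2 as well (0.20, adjusted p 0.0769). The core assembly factors Pomp and Psmg1 changed by -0.039 and -0.046 (adjusted p 0.760 and 0.707), and the ubiquitin receptor Adrm1 changed by 0.17 (adjusted p 0.412). The core assembly factor Psmg3 rose by 0.30 ± 0.064 (adjusted p 0.00311) and by 0.31 without array 2 (adjusted p 0.00943). Psmg2 and Psmg4 changed by 0.14 and -0.079 (adjusted p 0.311 and 0.582).

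Among regulators of proteasome genes, 12 of 13 were measured, 3 rose and 0 fell, with a median change of 0.28. Without array 2 the count was 3 as well and the median 0.17. Nfe2l1 was 8.79, 8.67, 8.93, 8.75 and 8.89 in vehicle and 9.31, 8.44 and 9.57 at 881 mg/kg. Its dosed arrays 1 and 3 lay above every vehicle array and array 2 below every one. The change of 0.30 ± 0.16 did not pass (adjusted p 0.218), whereas without array 2 it was 0.63 (adjusted p 0.000691). Nfe2l2, the related oxidative stress factor, changed by -0.24 ± 0.13 (adjusted p 0.182).

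The regulators that rose were Maff, Keap1 and Nfyb. Maff, a small partner of Nfe2l1 and Nfe2l2, was 4.95 to 5.08 in vehicle and 5.53, 8.43 and 6.01 at 881 mg/kg. It rose by 1.64 ± 0.40 (adjusted p 0.00801) and by 0.75 without array 2 (adjusted p 0.0163). Keap1, which marks Nfe2l2 for degradation, rose by 0.49 ± 0.11 (adjusted p 0.00315). Nfyb, a subunit of the CCAAT-binding factor, rose by 0.31 ± 0.094 (adjusted p 0.0275), a call lost without array 2 (0.28, adjusted p 0.0971), where Nfe2l1 took its place in the count.

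In the list of ubiquitin supply and the segregase Vcp, 14 of 19 genes were measured, 2 rose and 0 fell, with a median change of 0.10. Ube4b, a chain-elongating ligase, rose by 0.43 ± 0.13 (adjusted p 0.0229). Ube2k, a conjugating enzyme, rose by 0.36 ± 0.073 (adjusted p 0.00190). The Ube4b call was lost without the 881 mg/kg array 2 (0.25, adjusted p 0.196). Vcp changed by -0.15 ± 0.081 (adjusted p 0.194).

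Of the interferon response and class I presentation genes, with which the inducible subunits are usually co-regulated, 30 of 34 were measured, 3 rose and 4 fell at 881 mg/kg, with a median change of -0.026. Without array 2 the counts were 3 and 5 and the median -0.15. Stat2 and Cxcl11 rose by 0.82 and 0.75 (adjusted p 0.00108 and 0.00291), and Tapbp, the peptide-loading partner of class I molecules, rose by 0.39 ± 0.085 (adjusted p 0.00330). The genes that fell were RT1-Da by 1.17, Cd74 by 0.97, Irf8 by 0.67 and Ifngr1 by 0.60 (adjusted p 0.00577, 0.00832, 0.00352 and 0.000918). RT1-Da and Cd74 serve class II presentation and Irf8 is a factor of myeloid cells. The macrophage markers fell at the same dose, and a link between those falls and these was not tested. Tap1, the transporter that feeds peptides to class I molecules, changed by 0.046 (adjusted p 0.888). Its partner Tap2 changed by -0.24 ± 0.099 (adjusted p 0.096) and fell by 0.37 without array 2 (adjusted p 0.0161). B2m changed by -0.17 (adjusted p 0.0677) and Irf1 by -0.29 (adjusted p 0.431). Vehicle array 5 was the highest and vehicle array 3 the lowest for Tap1 too, at 8.76 and 8.11. Tapbp and Nlrc5 showed that order as well, and none of the other measured genes of this list did. The order was noticed after the values were seen, and its share over all genes is not given here.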

How the data were processed

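Liver RNA of 20 arrays in 6 dose groups was analysed. The authors deposited log2 values summarised by RMA, per the submitters' processing notes, for 31099 probe sets. For RMA, version and settings were not given in the sources used here. After leaving out 57 control probe sets, 20826 probe sets had 1 gene symbol in the platform annotation, which gave 14217 genes, with the brightest probe set by mean level kept for each gene. Another 6 probe sets name a proteasome gene together with other symbols and were not used. Psmb6 is on such a probe set, so the planned difference of Psmb9 and Psmb6 was not computed and 4 instead of 6 p-values were adjusted.

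Dose groups were compared in R 4.3.3 by limma 3.58.1, with lmFit and moderated variances from eBayes, in 1 fit over all 6 groups without covariates, with Benjamini-Hochberg adjustment over all genes and a threshold of 0.05. The fit was tested on simulated data. Differences within arrays used exact permutation tests in Python 3.11.15 with SciPy 1.17.1, and figures were drawn with matplotlib 3.10.9. The members and gene lists were chosen with earlier results of these data known. Members named with values were the inducible subunits and their counterparts, Psme1, Psme2 and, in each role, up to 6 with the smallest p and the one with the largest p at 881 mg/kg; Psmd1 and the remaining members were added after their values were seen. From each pathway list up to 4 called genes were named, with a few further genes named whatever their result. Psmg2, Psmg3, Psmg4, Nlrc5, Tap2, Tapbp, Irf8 and Ifngr1 were named after their values were seen. Alternatives were array centring, the mean of probe sets, a signal filter at the 25th percentile, a variance trend, a replicate block, the beta-actin difference as a covariate, the compared groups alone, and leaving out each array. The number of arrays limits the precision.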

Additional observations from a re-analysis of the deposited data

Results flagged for a closer look

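In 4 of the 41 members a vehicle array stood apart from the other 4 (gap over range above 0.71). Chance alone marks about 1 group in 20. Psmd5 was 9.40 on vehicle array 2, where the next lowest was 9.70. Psmd7 was 10.49 on vehicle array 1, where the next lowest was 10.64. Psma6 was 12.04 on vehicle array 1, where the others began at 12.17. Psmd10 was 9.05 on vehicle array 1, where the next highest was 8.89.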

How the results depend on the processing

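At 55, 110 and 220 mg/kg and between 881 and 440 mg/kg, 0 members were called under every alternative run. At 881 mg/kg the count of 5 became 3 with centred arrays, 2 with only the groups compared, 8 with the replicate number as a block and 2 to 6 when 1 array was left out. It was 2 without the 881 mg/kg array 2. Psma1 and Psmd5 kept their calls under all of these. At 440 mg/kg the count of 1 became 0 with the block, 0 with only the groups compared, 2 with the beta-actin covariate (Psmd5 rose, Psmd1 fell) and 0 to 1 when 1 array was left out. The trend count of 5 became 2 with centred arrays, 3 with the mean of probe sets, 2 with the beta-actin covariate and 2 to 6 when 1 array was left out. The trend uses all groups, so it has no fit on only the groups compared. The share of all genes called moved with the setting too. At 881 mg/kg 12.7% rose in the main fit, 10.5% with centred arrays and 7.62% without array 2. For the other settings in this paragraph the share of all genes is not given here. Whether those member counts differ from the background therefore cannot be read from them. The cause of the changes in count was not tested.

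The labels do not say that equal replicate numbers mark arrays that belong together, and not every pair of equal number correlated above 0.1. The correlation of deviations was -0.12 to 0.35 (median 0.14) over 45 pairs of equal number and had a median of -0.050 over 120 other pairs, and 15 of 18 arrays correlated best with their own number, which is a hint from the data and not from the design. The block at 881 mg/kg added Psmd12, Psmd13, Psmd14 and Psme4 and lost Psme1, and the trend count with the block was 7. The share of all genes called with the block is not given here, so its member counts cannot be set against the background.

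Changes at 881 mg/kg that turned sign, none called in either setting, were Psma2 0.11, Psmb2 0.080, Psmb7 0.26, Psmc1 -0.012, Psmc3 -0.026, Psmd3 -0.035 and Psmd8 0.065 with the beta-actin covariate. With centred arrays they were Psmb1 -0.0017, Psmb3 -0.041 and Psme3ip1 -0.0085. With the mean of probe sets they were Psmb5 -0.021 and Psmc4 -0.0047, and with the block Psmd4 0.039. Leaving out 1 array gave -0.27 to 0.17 for Psma2, -0.091 to 0.12 for Psmb2, -0.054 to 0.12 for Psmb3, -0.22 to 0.20 for Psmb7, -0.027 to 0.095 for Psmc3, -0.087 to 0.11 for Psmd4, -0.19 to 0.12 for Psmd8 and -0.23 to 0.044 for Psmd9. It gave -0.16 to 0.21 for Psmb8 minus Psmb5 at 440 mg/kg, -0.16 to 0.31 for Psmb10 minus Psmb7 at 440 mg/kg and -0.051 to 0.52 at 881 mg/kg.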
